A study of Rattus norvegicus with 5 samples.

Results

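The enzymes that handle foreign chemicals, with their close relatives that act on the body's own lipids and hormones, were followed in rat lung after instillation of urban dust. Members were all genes whose single symbol in the array's annotation starts with Cyp and a digit, Gst, Mgst, Ugt, Sult, Ephx, Fmo or Aldh. These letters matched 96 of 4736 named genes. One of them, Fmod, encodes the matrix proteoglycan fibromodulin and was left out, so 95 members remained. Lung RNA was measured on 5 one-colour oligonucleotide arrays with 1 pooled RNA per group. The early array held RNA taken 2, 4 and 6 h after intratracheal instillation of EHC-93, an urban particulate matter, the intermediate array RNA from 15, 18 and 21 h, and the late array RNA from 24, 32 and 40 h. The sham array pooled RNA of rats given saline, taken at 2, 15 and 24 h, and the untreated array held a pool of 3 rats without instillation. All 4 instilled arrays share the instillation itself, and only 3 of them the dust. The sources used here do not give strain, sex, age or the number of rats in each instilled pool.

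Foreign chemicals are commonly made reactive or polar in a first phase by cytochromes P450 (Cyp), flavin monooxygenases (Fmo), epoxide hydrolases (Ephx) and aldehyde dehydrogenases (Aldh), and are then joined to glutathione, glucuronic acid or sulfate by transferases (Gst and Mgst, Ugt, Sult). In the lung much of the P450 activity lies in club cells of the airways and in alveolar type 2 cells. Polycyclic aromatic hydrocarbons, which urban dust can carry, activate the aryl hydrocarbon receptor, whose classical targets are Cyp1a1, Cyp1b1 and Aldh3a1, while the transcription factor Nrf2 drives several transferases through antioxidant response elements.

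Values are intensities scaled to a common array median, in arbitrary units, with a floor of 173 below which values were not told apart. Where one side lay under the floor, the fold was computed against the floor and is written "at least". A gene is called higher or lower on an exposed array where it differed by 2-fold or more from both the sham and the untreated array, together named the unexposed arrays. With 1 array per group these differences have no error and no test, and the number of arrays limits their precision. The 5′ to 3′ signal ratio of beta-actin, a sign of RNA integrity, was 43.1% on the early array and 9.07% to 24.4% on the others, and its part in the results was not tested. The surfactant protein genes Sftpa1, Sftpb, Sftpc and Sftpd of alveolar type 2 cells and Scgb1a1 of club cells were far above the floor on every array, which is the pattern of the labelled tissue.

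Of the 95 members, 67 exceeded the floor on 1 array or more and are called measured here, and 53 had a mean intensity over the 5 arrays above the floor and are called lung-expressed. All 15 glutathione transferases, the 1 flavin monooxygenase (Fmo1), both epoxide hydrolases and 8 of 9 aldehyde dehydrogenases were lung-expressed. So were 17 of 37 P450 genes of families 1 to 4, 5 of 12 other P450 genes, 4 of 9 sulfotransferases and 1 of 10 glucuronosyltransferases. The 28 members under the floor on every array included the steroid-making P450 genes Cyp11a1, Cyp11b2 and Cyp17a1, the liver-type Cyp2c7, Cyp2c11, Cyp2c12, Cyp2c13 and Cyp3a2, bile acid Cyp7a1 and the myelin lipid enzyme Ugt8. Not all liver-type P450 genes were under it. Cyp3a23-3a1 read 323 to 547 and Cyp2a1 548 to 882 over the 5 arrays. Albumin, the defining liver gene, read between 46.4 and 195 over the arrays. Another 14 members passed the floor on some array but not in the mean, among them Cyp2j3, Cyp4a1, Cyp21a1, Ugt2a1 and Ugt2b37.

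Few members differed by 2-fold from both unexposed arrays. On the early array 0 of 67 measured members were higher, against 2.54% of all 3667 measured genes, and 1 was lower, against 0.3%. At the intermediate phase 0 were higher and 0 lower (background 0.873% and 0.218%), and at the late phase likewise 0 and 0 (0.6% and 1.04%). With a threshold of 1.5-fold, 3 were higher and 4 lower on the early array (6.84% and 2.97% of all genes), 2 and 1 on the intermediate array (4.75% and 1.58%), and 0 and 0 on the late array (3.05% and 3.46%). Those of the early array were Aldh3a1, Cyp1b1 and Cyp7b1, higher, and Cyp24a1, Cyp2a3, Cyp4a8 and Cyp4f6, lower, and those of the intermediate array Cyp7b1 and Cyp21a1, higher, and Cyp2f4, lower. Of the 53 lung-expressed members, 43 stayed within 2-fold and 28 within 1.5-fold of both unexposed arrays on all 3 exposed arrays. The shares called at 2-fold lie near the background and say nothing particular about the members.

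**Figure D1:**
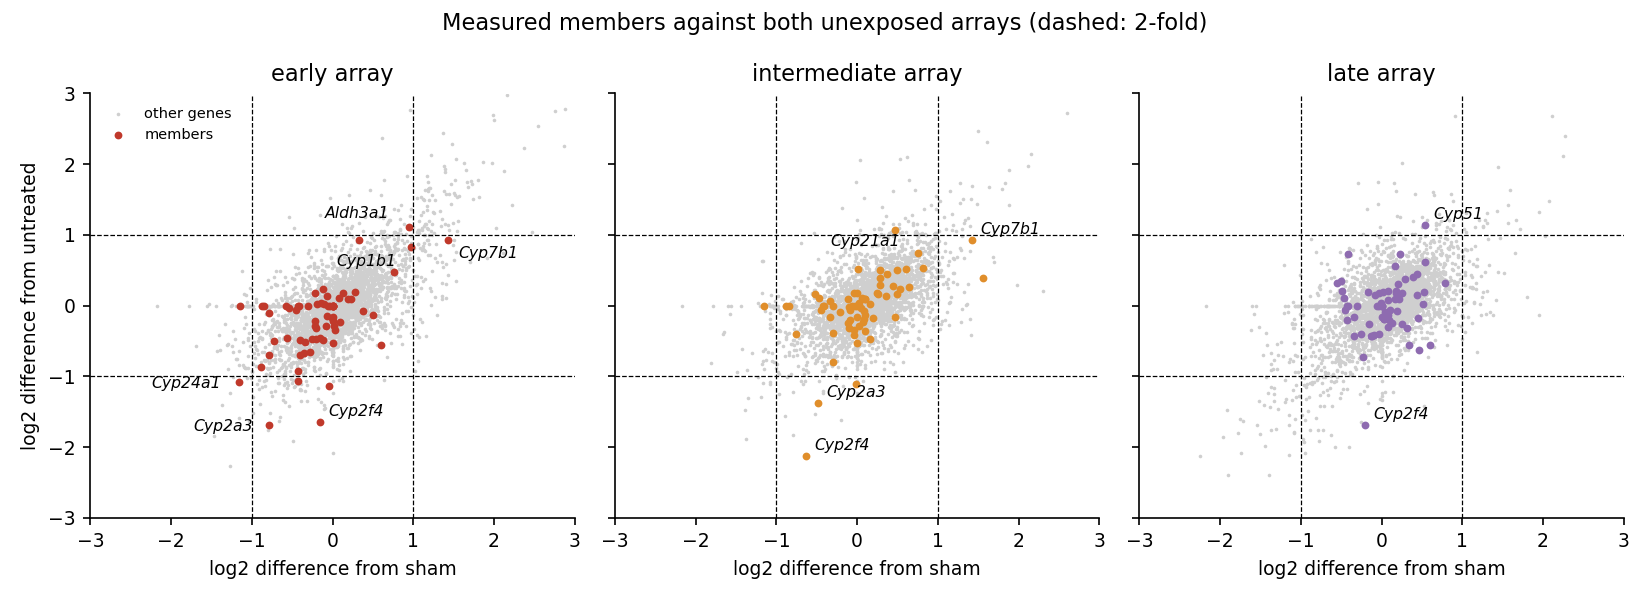
Log2 difference of each measured gene from the sham array (x axis) and from the untreated array (y axis) on the early, intermediate and late arrays; coloured points are the 67 measured members, grey points other measured genes, dashed lines mark 2-fold, and grey points beyond 3 are not drawn. No member lies in the upper right corner of any panel, 1 (Cyp24a1, early) lies in the lower left corner, and Cyp2f4 lies low against untreated in all 3 panels.

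The small differences of the early array leaned downward. Of the 53 lung-expressed members, 27 (50.9%) read below both unexposed arrays by any amount, against 36.4% of the 3189 genes whose mean was above the floor, and 10 (18.9%) read above both, against 35.6%. Each member was read here by 1 probe set. Probe sets annotated to several genes were not counted, and of those above the floor more read above both unexposed arrays early than below both. Of those below, Cyp2b2, Cyp2c23, Cyp4a8, Gsta4 and Gstm2 had another probe set above the unexposed mean (log2 0.51, 0.36, 0.02, 0.11 and 0.16). Of those above, Cyp2d4 and Gsta1 had another one below it (-0.02 and -0.18). On the intermediate array 15 members were below and 21 above (background 20.9% and 49.9%), and on the late array 11 and 19 (23.3% and 46.4%). The median log2 difference of the lung-expressed members from the mean of the unexposed arrays was -0.25 early, -0.01 in the intermediate phase and 0.01 late, beside -0.01, 0.13 and 0.11 for the 3189 genes with a mean above the floor. On the early array the members' median minus that of all measured genes was -0.24, and between -0.23 and -0.22 under 3 other scalings. By family the early medians were -0.43 for P450 families 1 to 4, -0.18 for glutathione transferases, -0.11 for sulfotransferases, -0.09 for other P450 genes and 0.01 for aldehyde dehydrogenases. The early array also had the highest 5′ to 3′ ratio, and whether that bears on this lean was not tested.

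**Figure D2:**
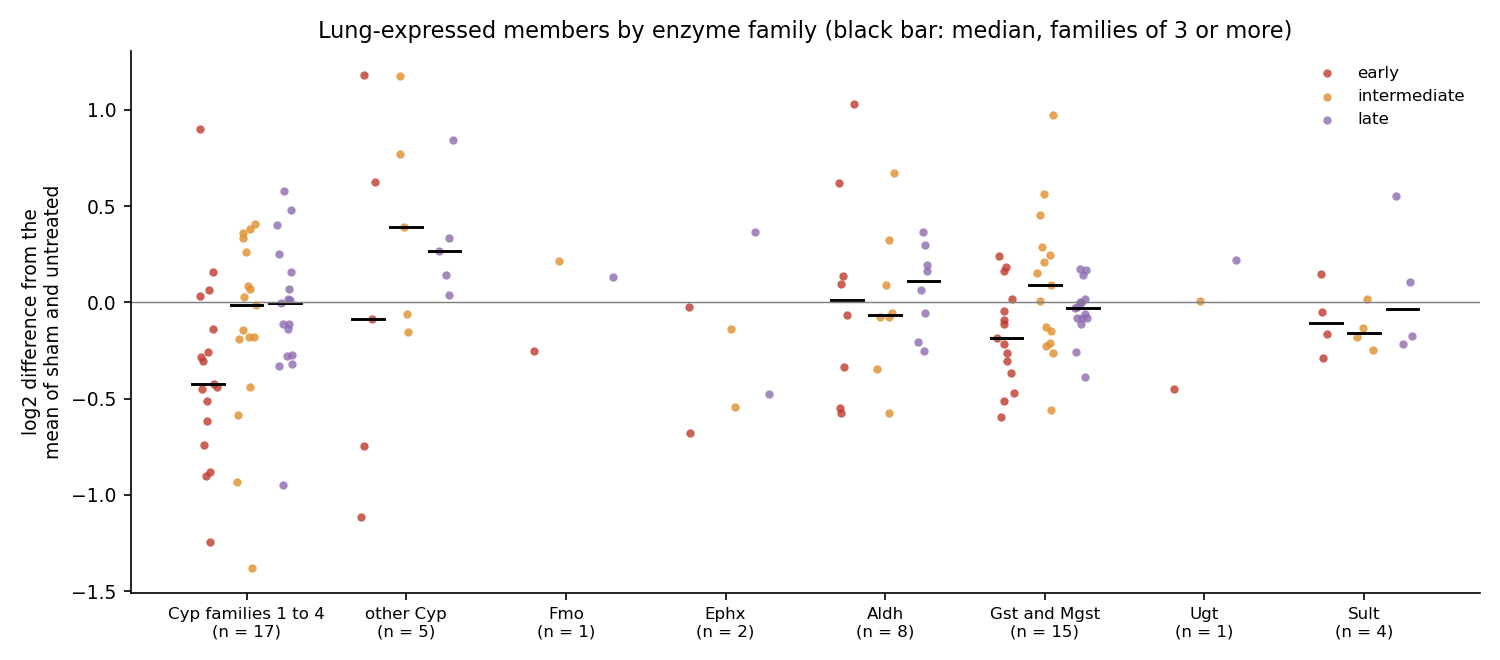
Log2 difference from the mean of the sham and untreated arrays (y axis) for each of the 53 lung-expressed members, by enzyme family (x axis) and exposed array (colour), with black bars at the median of families with 3 or more members. The early points of P450 families 1 to 4 centre on -0.43, while the intermediate and late points of most families centre near 0.

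Among targets of the aryl hydrocarbon receptor, Cyp1b1 and Aldh3a1 read highest on the early array, and Cyp1a1 stayed under the floor throughout. Cyp1b1, a P450 that oxidises polycyclic aromatic hydrocarbons and oestrogens, read 1251 in the early phase, 592 in the intermediate and 534 in the late phase, with 639 for sham and 705 for untreated lung. The early value stands alone, exceeding sham 1.96-fold and untreated 1.78-fold, and both later values lie below both unexposed arrays. Aldh3a1, which oxidises aromatic aldehydes, read 705, 368, 290, 367 and 326 in the same order. Its early value was 1.92-fold above sham and 2.17-fold above untreated, just short of a call, and the other 4 arrays lay close together. Cyp1a1, the P450 most readily induced by the receptor, read 91.8, 28.0, 21.7, 44.7 and 38.4 and has no order under the floor, and 3 probe sets of Cyp1a2 were under the floor as well.

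The promoter of Cyp1b1 is shown because it holds the core letters of the site that the receptor binds. Sequences are from RefSeq (GRCr8), give the 250 bases before the start of transcription 5′ to 3′ on the gene's strand, and carry matches to GCGTG (core of the xenobiotic response element) or TGACNNNGC (core of the antioxidant response element), on either strand, in capitals. Cyp1b1, chr6:21094315-21094564, + strand:
Cyp1b1: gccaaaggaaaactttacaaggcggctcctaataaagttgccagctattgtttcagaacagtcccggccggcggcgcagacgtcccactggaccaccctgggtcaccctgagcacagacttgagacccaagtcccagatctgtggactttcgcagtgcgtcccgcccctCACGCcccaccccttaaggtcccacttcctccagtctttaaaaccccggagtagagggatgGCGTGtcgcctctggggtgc
The GCGTG core occurs here once on the gene's strand, starting 20 bases before the start site, and once on the opposite strand, 81 to 77 bases before it. Promoters were found for 74 of the 95 members, 76 in all, and 16 of them (21.1%) hold GCGTG, against 25.9% of 33469 promoters in the table. TGACNNNGC occurs in 8 of the 76 (10.5%) and in 10.1% of all. The 2 motifs do not overlap in the printed sequences, and a match is a description of letters only.

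Other probe sets of Cyp1b1 gave different sizes. A second read 482 on the early array, 218 on the intermediate, 174 on the late, and 145 and 60.4, both under the floor, on the sham and untreated arrays, so its early value was at least 2.79-fold above both. Another read 269, 355, 190, 213 and 237, highest on the intermediate array, with the early value 1.26-fold and 1.14-fold above sham and untreated. The last was under the floor on every array. The early excess of Cyp1b1 was thus read by 2 of its 4 probe sets at close to 2-fold or more, and at under 1.3-fold by another. Aldh3a1 has 1 probe set.

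**Figure D3:**
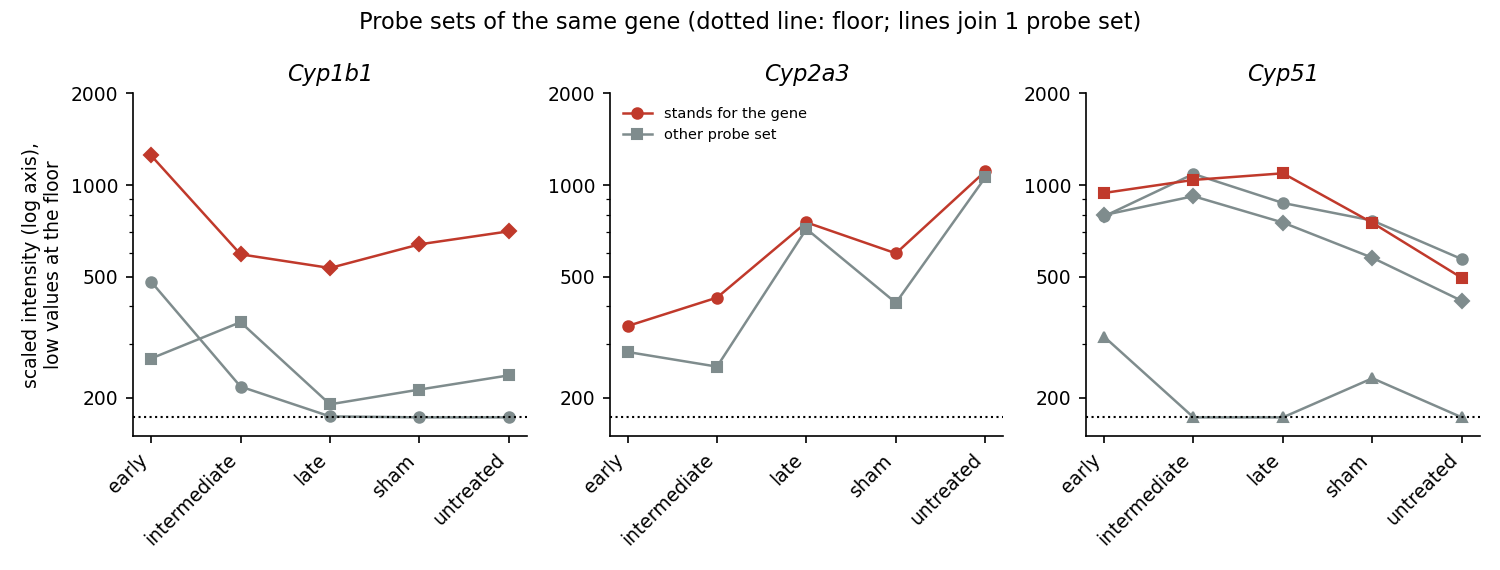
Scaled intensity on a log axis (y axis) of each probe set that passed the floor at least once for Cyp1b1, Cyp2a3 and Cyp51 on the 5 arrays (x axis); red is the probe set that stands for the gene, grey the others, the dotted line is the floor, and lines only join 1 probe set. For Cyp1b1 2 of 3 probe sets peak on the early array, for Cyp2a3 both are highest on the untreated array, and for Cyp51 3 of 4 are lowest on the untreated array.

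P450 genes of sterol, steroid and vitamin metabolism held the 1 called member, Cyp24a1, and a member high on 2 exposed arrays, Cyp7b1. Cyp24a1, which breaks down active vitamin D, read 234 early, 488 and 640 in the intermediate and late phases, 523 for sham and 494 for untreated lung. The early value alone was low, 2.23-fold below sham and 2.11-fold below untreated. Its other probe set was never above the floor. The call thus rests on 1 probe set and was lost with the median of both (log2 difference -0.56) and with a floor at the 60th percentile (-0.15). Cyp7b1, an oxysterol hydroxylase, read 559 on the early and 557 on the intermediate array against 297 late, 208 for sham and 293 for untreated lung. Both earlier exposed arrays stood above the other 3, by 2.68-fold and 2.67-fold over sham and by 1.91-fold and 1.90-fold over untreated.

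Cyp51, the lanosterol demethylase of cholesterol synthesis, read 942 early, 1040 intermediate and 1093 late, with 752 for sham and 496 for untreated lung. The exposed values lie above both unexposed values without overlap, and the sham value also lies 1.52-fold above the untreated one. Of its other probe sets 2 show the same lack of overlap, but a dimmer one reads 318, 19.8 and 106 exposed against 232 and 110. The intermediate and late differences of that dimmer one from the mean of the unexposed arrays both have the other sign. Over untreated the exposed arrays were 1.90-fold, 2.10-fold and 2.21-fold higher, over sham 1.25-fold, 1.38-fold and 1.45-fold. Cyp27a1, a mitochondrial sterol hydroxylase, read 511, 769 and 943 against 687 and 1064, with its lowest value on the early and its highest on the untreated array. Cyp26b1, which clears retinoic acid, stayed between 349 and 495 on all arrays. Cyp21a1, a steroid hydroxylase of the adrenal, was above the floor on the intermediate array alone, at 291, at least 1.68-fold above both unexposed arrays.

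**Figure D4:**
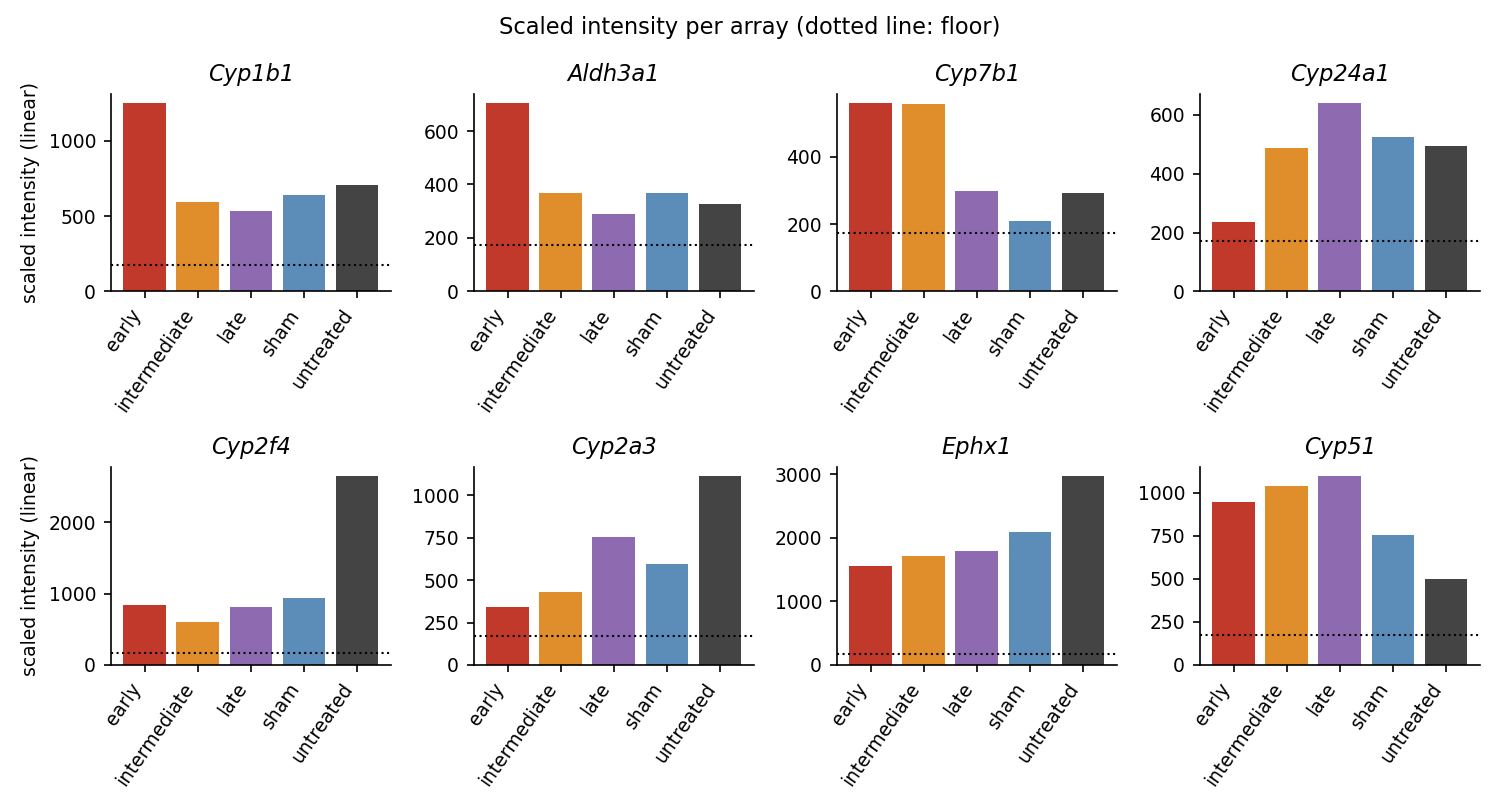
Scaled intensity (y axis, linear from 0) on each of the 5 arrays (x axis) for 8 members, 1 array per group and so no error bars; the dotted line is the floor. Cyp1b1 and Aldh3a1 are highest on the early array (1251 and 705), Cyp24a1 is lowest there (234), and Cyp2f4, Cyp2a3 and Ephx1 are highest on the untreated array (2643, 1111 and 2963).

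A large difference separated the untreated array from all 4 instilled arrays, saline included. Cyp2f4, a club cell P450 that activates naphthalene, read 842, 605 and 818 in the early, intermediate and late phases and 940 for sham, against 2643 for untreated lung. The untreated value was 3.14-fold, 4.37-fold and 3.23-fold above the 3 exposed arrays and 2.81-fold above sham, and the dust arrays lay 1.12-fold to 1.55-fold below sham. Cyp2f4 was the 1 of 67 measured members at least 2-fold higher on the untreated than on each instilled array, and 0 were lower, in a comparison added after the values were seen. Among all measured genes 0.191% were higher and 0.245% lower in that way. In a lung extract, fewer cells of a type and less RNA per cell cannot be told apart. Of 5 listed club cell markers 1 was measured, Scgb1a1, the club cell secretory protein, which read 19738, 23021, 25300, 23792 and 25506 in the order early, intermediate, late, sham and untreated. Its untreated value was 1.07-fold above sham, where that of Cyp2f4 was 2.81-fold.

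Cyp2a3, a lung and nasal P450 that activates tobacco nitrosamines, read 344 early, 427 intermediate and 754 late, with 597 for sham and 1111 for untreated lung. The untreated value was again the highest, 3.23-fold above early, 2.60-fold above intermediate, 1.47-fold above late and 1.86-fold above sham. Below sham the early array lay by 1.73-fold, and the late array read above sham. Its second probe set gave the same order except that early (283) and intermediate (253) changed places, with 718, 410 and 1061 on the late, sham and untreated arrays.

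Cyp2a3 and Cyp2f4 lie in a cluster of Cyp2 genes on chromosome 1, with Cyp2a1 and Cyp2a2 as the 2 protein-coding genes between them in the RefSeq table of GRCr8. Cyp2a1 read 548, 882, 559, 611 and 750 and Cyp2a2 171, 297, 231, 219 and 246 in the order early to untreated, both with the highest value on the intermediate array. A probe set listed for both of these genes read 200, 271, 251, 207 and 296, highest on the untreated array. Cyp2b15 in the same cluster stayed between 1513 and 1744. Near-identical copies make the Cyp2a1, Cyp2a2 and Cyp2b values uncertain as to the gene. The 2 promoters are shown because their genes shared the high untreated value and lie close together. Cyp2f4 lies at chr1:91543518-91543767, + strand, and Cyp2a3 at chr1:91299334-91299583, + strand:
Cyp2f4: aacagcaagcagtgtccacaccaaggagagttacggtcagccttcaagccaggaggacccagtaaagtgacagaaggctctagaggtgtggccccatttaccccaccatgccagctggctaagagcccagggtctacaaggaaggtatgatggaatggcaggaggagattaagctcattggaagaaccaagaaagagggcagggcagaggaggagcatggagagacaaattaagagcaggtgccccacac
Cyp2a3: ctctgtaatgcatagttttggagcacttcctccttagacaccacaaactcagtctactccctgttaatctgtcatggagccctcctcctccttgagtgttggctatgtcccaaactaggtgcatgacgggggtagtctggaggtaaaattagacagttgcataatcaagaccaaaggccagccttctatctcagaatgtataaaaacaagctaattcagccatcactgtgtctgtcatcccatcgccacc
Neither holds GCGTG or TGACNNNGC in this window.

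**Figure D5:**
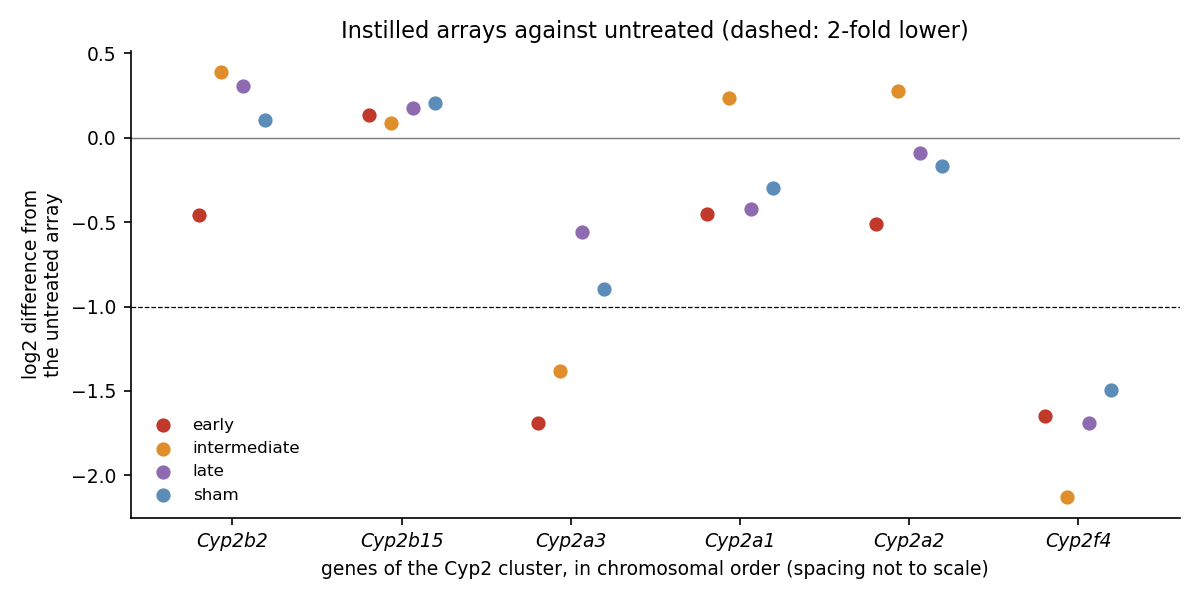
Log2 difference of each instilled array from the untreated array (y axis; dashed line, 2-fold lower) for the 6 measured genes of the Cyp2 cluster in chromosomal order (x axis, spacing not to scale); colours are the early, intermediate, late and sham arrays. All 4 points lie below 0 for Cyp2a3 and Cyp2f4, and for Cyp2f4 all lie below -1, while Cyp2b15 stays close to 0.

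Ephx1, the microsomal epoxide hydrolase that works beside the P450 enzymes, read 1557 early, 1706 intermediate and 1791 late, with 2093 for sham and 2963 for untreated lung. All 3 exposed values lie below both unexposed values, 1.17-fold to 1.34-fold below sham and 1.65-fold to 1.90-fold below untreated. Without overlap between exposed and unexposed arrays, Cyp2f4 and Ephx1 were the 2 lower lung-expressed members and Aldh1a2, Cyp51 and Cyp7b1 the 3 higher ones, 3.77% and 5.66% of 53. Among all genes with a mean above the floor these shares were 6.43% and 16.2%. Ephx1 is a known Nrf2 target, and its downstream start site at chr13:95263118-95263367, - strand, carries the antioxidant core on the opposite strand, 57 to 49 bases before the start, while its upstream start site holds neither motif:
Ephx1: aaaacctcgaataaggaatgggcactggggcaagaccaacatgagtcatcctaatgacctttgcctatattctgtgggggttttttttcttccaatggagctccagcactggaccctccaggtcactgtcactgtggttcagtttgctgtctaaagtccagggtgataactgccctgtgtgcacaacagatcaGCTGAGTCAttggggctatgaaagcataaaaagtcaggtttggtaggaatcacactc
Nqo1, a quinone reductase and Nrf2 target that is no member, lay the other way, with 5872, 4041 and 2771 on the exposed arrays against 2058 and 1989. Soluble epoxide hydrolase Ephx2, which acts on fatty acid epoxides, read 620, 573, 812, 724 and 549.

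None of the other P450 genes of families 1 to 4 was called against both unexposed arrays. Cyp2b2 (14694 early, 26481 intermediate, 24976 late, 21779 sham and 20204 untreated) was lowest on the early array, 1.48-fold below sham and 1.37-fold below untreated. Its second probe set gave 5635, 5475, 5472, 4969 and 3145 and so the opposite direction, with the early value 1.13-fold and 1.79-fold above them. No direction can therefore be given for Cyp2b2. Cyp4b1, a lung P450 that activates furans and aromatic amines, stayed between 3805 and 5106. Cyp4f6, a fatty acid hydroxylase, read 610 on the early array against 1353, 1519, 1048 and 990 on the intermediate, late, sham and untreated arrays. The early value lay 1.72-fold below sham and 1.62-fold below untreated. Cyp4a8, also a fatty acid hydroxylase, read 196 there against 362 and 359, but its second probe set read 230 against 231 and 221. Cyp2e1, the ethanol-oxidising P450, read 822, 1201, 1396, 1194 and 838, with the early array near the untreated and the later ones near or above sham. Another Cyp2e1 probe set read 567, 355, 590, 597 and 565, lowest on the intermediate array. A dimmer one read 240, 304, 361, 329 and 292, lowest on the early array. Cyp2d4 lay within 1347 to 1531 and Cyp2c23 within 831 to 1111.

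Set against the other exposed arrays alone, without the unexposed arrays, 1 member was at least 2-fold higher on the early array than on both later ones and 2 were lower (background 1.77% and 0.709%), in a comparison also added after the values were seen. The higher one was Cyp1b1, 2.11-fold above intermediate and 2.34-fold above late. Cyp4f6, 2.22-fold and 2.49-fold below, and Cyp24a1, 2.08-fold and 2.73-fold below, were the lower ones. With values as deposited the split was 2 higher, Aldh3a1 being added, and 1 lower. On the intermediate array 0 were higher and 0 lower than on both others (0.436% and 0.136%), as on the late array (0.109% and 1.23%).

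Among the remaining first-phase enzymes, Fmo1, an oxidase of nitrogen and sulfur compounds, stayed between 2479 and 3433, lowest on the early array. Aldh1a2, which makes retinoic acid, read 588, 609 and 470 on the exposed arrays against 346 and 422. These exposed values do not overlap with the unexposed ones, with differences of 1.36-fold to 1.76-fold over sham and 1.11-fold to 1.44-fold over untreated. Aldh1a1, a retinal dehydrogenase, stayed within 14352 to 19846 and mitochondrial Aldh2, the acetaldehyde oxidiser, within 5382 to 6488. Aldh3a2, Aldh6a1 and Aldh7a1, of fatty aldehyde, valine and lysine breakdown, ranged from 442 to 717, 414 to 580 and 955 to 1376. Aldh1l1, a folate enzyme, was above the floor on the sham array (382) and the late array (287) alone, so sham was at least 2.21-fold above untreated.

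Of the 15 glutathione transferases none was called on an exposed array. Gstm5, of the mu class, passed the floor on the late (206) and untreated (248) arrays alone. Gstp1, the pi-class enzyme of airway epithelium, read 5503 early, 5237 intermediate and 4834 late, with 4686 for sham and 5158 for untreated lung, a range in which exposed and unexposed values overlap. Its promoter is shown as that of a member with the antioxidant core close to the start but with small differences here, at chr1:210769706-210769955, - strand:
Gstp1: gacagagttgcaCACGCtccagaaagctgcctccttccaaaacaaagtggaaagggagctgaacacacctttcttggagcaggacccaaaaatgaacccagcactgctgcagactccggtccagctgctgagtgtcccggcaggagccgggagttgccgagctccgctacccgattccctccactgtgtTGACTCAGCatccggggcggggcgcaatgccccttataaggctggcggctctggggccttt
The TGACNNNGC match begins 61 bases before the start on the gene's strand. Gsta1 read 3148, 3085 and 2039 against 2589 and 2745, Gsta4 3187, 3370 and 3779 against 3468 and 4482, and Gstm2 4318, 4245 and 4645 against 4558 and 5286. Gstm1, of the mu class, read 3651, 4764 and 4364 against 4674 and 5815, and all 3 of its probe sets were highest on the untreated array. These alpha and mu class genes are close copies, and their probe sets may read more than 1 of them.

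Mgst1, the membrane-bound transferase that also reduces lipid peroxides, was highest on the intermediate array at 12668, against 7938 early, 9620 late, 8334 sham and 8818 untreated. That value exceeded sham 1.52-fold and untreated 1.44-fold, and the early value lay below both. Gstt2 was likewise highest on the intermediate array, at 1798 against 948 early, 1214 late, 1150 sham and 1496 untreated. The second Gstt2 probe set did not follow, with 419 there against 302, 429, 323 and 498. Gstk1, of mitochondria and peroxisomes, read 1058 on the intermediate array against 545, 545, 360 and 804. Its second probe set did not follow, with 486 there against 318, 443, 477 and 583. Gstm7, like Cyp2f4 and several other members such as Aldh1a1, Ephx1, Gstm1 and Gstm2, was highest on the untreated array. It read 595 there against 270, 276 and 386 on the exposed arrays and 279 on the sham array. Gsta3, Gsto1, Gstt1, Mgst2 and Mgst3 stayed within 1.5-fold of both unexposed arrays on each exposed array, by the probe set that stands for each gene. Another Gsta3 probe set read 269, 474 and 363 on the exposed arrays against 289 and 480, so its intermediate value was 1.64-fold above sham. A dimmer one was at least 1.62-fold above untreated on the late array.

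Among genes with a probe set of their own, few sulfo- and glucuronosyltransferases were above background, while probe sets shared by the Ugt1a genes, which were not counted as members, reached up to 3867. Sult1a1, the phenol sulfotransferase, stayed between 3333 and 4256 and Sult5a1 between 1079 and 1425. Sult2a2, a hydroxysteroid sulfotransferase, read 288, 236, 380, 221 and 304, and the Ugt2b probe set 473, 650, 751, 628 and 663, lowest on the early array. Sult2a1, Sult2a6, Ugt2a1, Ugt2b7 and Ugt2b37 were at or near the floor.

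Sham differed from untreated by at least 2-fold in 4 of 67 members, 1 higher and 3 lower, against 1.55% and 1.61% of all measured genes. The higher one was Aldh1l1 and the lower ones were Cyp2f4, Gstk1 (2.23-fold) and Gstm7 (2.13-fold). At 1.5-fold 5 were higher and 6 lower (6.44% and 7.5%), the further ones being Cyp2d2, Cyp4a1, Cyp4f5 and Cyp51 higher and Cyp27a1, Cyp2a3 and Gsta3 lower.

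In the comparison with more than 1 array on each side, the 3 exposed against the 2 unexposed arrays, limma with Benjamini-Hochberg adjustment over 3667 genes called 0 of 67 members and 0 of all genes at an adjusted p under 0.05. At an unadjusted p under 0.05 there were 2 members higher and 1 lower, with 4.8% and 2.18% of all genes. Cyp51 had the smallest p among the members, with a log2 difference of 0.75 ± 0.22 (SE, 3 against 2 arrays, limma adjusted p = 0.663). Ephx1 followed with -0.57 ± 0.20 (limma adjusted p = 0.698) and Aldh1a2 with 0.53 ± 0.19 (limma adjusted p = 0.698). Cyp7b1 (0.87 ± 0.35) and Cyp2f4 (-1.08 ± 0.46) had larger differences and larger errors. These p-values measure only the spread between the arrays, in which the phases and the gap between sham and untreated are included.

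Genes around these enzymes were read from lists of partners, other enzymes, transporters and regulators. As background, 2.54% of all measured genes were called higher early, 0.873% in the intermediate phase and 0.6% late, and with lists this short a single call is not a result about a list. Of 10 measured electron donors and heme genes 1 was higher on the early array, the heme oxygenase Hmox1 (15565 against 4745 and 1700), while Por, the reductase that feeds electrons to P450 enzymes, stayed between 2729 and 3582. Of 17 other oxidising, reducing and hydrolysing enzymes 1 was higher on the early array, Nqo1, by 2.85-fold and 2.95-fold. None of 7 other conjugating enzymes and none of 14 transporters was called on an exposed array. Among 11 genes of glutathione supply Ggt1, the glutathione-cleaving enzyme of the cell surface, was at least 4.44-fold higher on the intermediate array, and among 20 regulators Dbp, a clock factor that drives P450 genes, was 4.20-fold above sham and 2.79-fold above untreated on the late array. No listed gene was lower. Of 15 measured Nrf2 targets 3 were higher on the early array, Nqo1, Hmox1 and the thioredoxin reductase Txnrd1, and the 8 of them that are members here (Gsta1, Gsta3, Gsta4, Gstm1, Gstp1, Mgst1, Ephx1 and Aldh3a1) were not. Ahr itself was under the floor on every array. The list medians on the early array lay between -0.23 for the other first-phase enzymes and 0.33 for the electron donors, beside -0.01 for all measured genes, apart from the 3 receptor targets Cyp1b1, Aldh3a1 and Nqo1 at 1.03.

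Markers of other cells differed between the arrays beside these values. The 4 measured of 10 neutrophil markers summed to 36910 early, 54488 intermediate and 41794 late, with 22901 for sham and 7953 for untreated lung. Most of each sum was Lcn2 (20334 for sham and 5976 for untreated lung), while Padi4 read 413 and 458 there. S100a8, S100a9 and Padi4 were called higher early, and S100a9, Padi4 and Lcn2 in the intermediate phase. Late, only Padi4 was. The shares of all measured genes called higher were 2.54% early, 0.873% intermediate and 0.6% late. Of 7 adipocyte markers 5 were measured, with medians of -0.83, -0.86 and -1.24 on the exposed arrays against the mean of the unexposed ones. Their Fabp4, like Cyp2f4, was highest in untreated lung, at 1840 against 902 for sham and 519 to 723 with dust. Fabp4 was listed as a macrophage marker as well. Of the other adipocyte markers, Cfd was called lower on the early array, Ucp1 on the intermediate array, and both on the late array. Of all measured genes 0.3%, 0.218% and 1.04% were called lower on these arrays. Lep stayed between 1846 and 2261 and Lpl between 3738 and 4535, so the adipocyte markers did not all follow. The adipocyte sum ran from 6893 to 9533 over the arrays. Of 6 fibroblast markers 5 were measured, summing to between 31239 and 39559, and Dcn was called lower on the early array. Of 12 macrophage and monocyte markers 6 were measured, with medians of 0.04, 0.46 and 0.94 on the exposed arrays. Cd14 was called higher early, and Fcgr2b, Ctsk and Spp1 late, where 2.54% and 0.6% of all measured genes were. Of 7 alveolar type 1 markers 4 were measured, and Cav1 was called higher early and lower in the intermediate phase. None of 4 measured endothelial and 5 measured smooth muscle markers was called. The 4 measured of 10 alveolar type 2 markers summed to 135771, 180083 and 176683 on the exposed arrays against 148888 and 135666. The 2 measured of 10 ciliated cell markers summed to between 765 and 1047, and 6 of 9 hepatocyte markers to between 3433 and 4291. The part of these cell differences in the values of Cyp2f4, Cyp2a3, Ephx1 and Cyp51 was not tested.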

How the data were processed

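Rat lung RNA on 5 one-colour arrays, 1 pooled RNA per group, was grouped by sample title. The authors deposited an intensity on a linear scale for each probe set. Their values share a trimmed mean (2% off either tail) of 1001.38 to 1001.63, so they had been scaled. The sources used here do not give the algorithm, software or detection calls. Of 8799 probe sets, 59 controls were left out, and of the other 8740, 7006 had 1 gene symbol in the platform annotation, 308 several and 1426 none listed; only the first kind was named. All 95 member identifiers were found in a RefSeq table of GRCr8 with the same symbol.

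From the deposited intensity, arrays were scaled to a common median, floored at the 40th percentile (172.53) and taken to log2. A gene was represented by its probe set of highest mean log2 value over the 5 arrays, which can favour probe sets that read high on exposed arrays. Calls needed 2-fold from both unexposed arrays. The 3 exposed and 2 unexposed arrays were compared with limma 3.58.1 (lmFit, eBayes) on 3667 genes above the floor on at least 1 array. Named members were those past 2-fold or 1.5-fold from both unexposed arrays or past 2-fold between them, the 5 smallest limma p where none passed, the 5 highest means per family, and a list of known lung members; other members named were chosen after their values were seen. Whether pools share animals is unknown, so p-values measure only the spread between arrays. Alternatives changed the scaling, floor, probe set, reference, threshold, filter and arrays. The steps were tested on simulated data. The members and the gene lists were chosen with earlier results of these data known. Python 3.11.15 and R 4.3.3 were used.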

Additional observations from a re-analysis of the deposited data

Results flagged for a closer look

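Probe sets annotated to several genes were left out of the member values, and 34 of them listed a member among their genes, 15 with a value above the floor on some array. Of these, 5 read at least 1.5-fold above both unexposed arrays on an exposed array, 3 early and 2 intermediate, where 6.84% and 4.75% of all measured genes did so. Several of these probe sets read the same genes and are not separate cases. The 3 of the early array were all annotated only to genes of the Ugt1a locus, whose products join glucuronic acid to phenols and bilirubin. Probe set S56937_s_at, listed for 8 such genes, read 618 early against 381 for sham and 326 for untreated lung, a 1.62-fold and 1.89-fold difference, with 282 and 364 on the intermediate and late arrays. J02612mRNA_s_at, listed for the same number of genes, read 1240 against 509 and 809, 2.44-fold and 1.53-fold higher. D38062exon_s_at, listed for 6, read 277 against 151 and 65.5, both under the floor, and so was at least 1.61-fold higher. On the intermediate array AF039212mRNA_s_at, also of the Ugt1a locus, read 326 against 194 and 186, and rc_AA926193_at, listed for 2 sulfotransferase symbols, read 298 against 188 and 134. Other Ugt1a probe sets listed for 8 genes did not all follow: D83796_s_at read 1910 on the early array against 1366 and 1176, and J05132_s_at 2927 against 3052 and 3101.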

How the results depend on the processing

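With the floor at the 20th percentile, 5 members were called in the early, 5 in the intermediate and 1 in the late phase and 17 between sham and untreated, against 1, 0, 0 and 4. Calls over all genes also increased at that floor, from 93 higher and 11 lower to 146 and 66 early and from 32 and 8 to 103 and 60 intermediate. They went from 22 and 38 to 92 and 93 late, and from 57 and 59 to 288 and 227 for sham. A floor at the 60th percentile left 0 on the early array and 1 between sham and untreated, and with the median of probe sets 0 on the early array. Against the sham array alone 3 members were called early and 3 intermediate, and against the untreated array alone 6 early, 4 intermediate and 2 late. Over all genes the early counts were then 158 higher and 68 lower against sham, and 148 and 75 against untreated. The intermediate ones were 87 and 59 against sham and 88 and 34 against untreated, and the late ones against untreated 64 and 98. At 1.5-fold the counts were 7 early, 3 intermediate and 11 for sham, and at 3-fold 0 early and 0 for sham. Between exposed arrays, the 20th percentile floor gave 5, 5 and 1 members for early, intermediate and late, and the median of probe sets 1 for early and 1 for late, against 3, 0 and 0. Over all genes that floor gave 111 higher and 86 lower early, 86 and 67 intermediate and 54 and 106 late. The main counts over all genes were 65 and 26, 16 and 5, and 4 and 45. With the median of probe sets they were 71 and 17 early and 5 and 37 late. The causes were not tested beyond what the settings change by construction.

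Limma called 0 members under the 14 alternatives, 0 to 0 when each array was left out in turn, which shows no stability since it called no gene to begin with. Without sham or untreated, the lone unexposed array was assumed to vary like the exposed ones. There were 0 to 10 members at an unadjusted p under 0.05, with a smallest member adjusted p between 0.256 and 0.828. Cyp2f4 was called for untreated against all 4 instilled arrays in each of the 7 alternatives. Of 1288 values of named members under alternatives, 1274 kept their side of the 2-fold threshold, 7 lost and 7 gained a call, and 0 of the called values turned sign. The call of Cyp24a1 was lost at the 60th percentile floor (-0.15) and with the median of probe sets (-0.56), those of Gstk1 (-0.81 and -0.72) between sham and untreated at the same settings, and that of Gstm7 with 75th percentile scaling (-0.97) and at the 60th percentile floor (-0.38). Aldh1l1, at the 60th percentile floor, was 0 apart. Scaling moved the median of all genes on the intermediate array from 0.09 to -0.04 with values as deposited, and that of the lung-expressed members from -0.01 to -0.18. No paired analysis was possible because each group has 1 array.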
